A study of Homo sapiens with 6 samples.

Results

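LARP1 (La-related protein 1) binding sites were examined on noncoding RNAs other than ribosomal RNA and the U small nuclear RNAs. The members are the listed PAR-CLIP sites on RefSeq noncoding accessions (NR_ or XR_), without transcripts that the mRNA-seq table names RNA5S, RNA5-8S, RNA18S, RNA28S, RNA45S or RNU followed by a digit. This left 542 of the 3948 sites listed under growing conditions and 524 of the 3947 sites listed under mTOR-inactive conditions, on 886 transcripts in all. The rule used names and accessions, not measured values.

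All libraries came from HEK293T cells, an embryonic kidney line that carries the SV40 large T antigen, with LARP1 at its endogenous level. For PAR-CLIP (photoactivatable ribonucleoside-enhanced crosslinking and immunoprecipitation), cells were fed 100 µM 4-thiouridine for 14 hr, irradiated with 150 mJ/cm2 of ultraviolet light, and LARP1 was immunoprecipitated. Cells were growing or were made mTOR-inactive by the kinase inhibitor PP242 (2.5 µM), with 1 PAR-CLIP library and 2 mRNA-seq libraries for each condition. The PAR-CLIP comparison therefore has no replicate error and no test, and its values are given side by side.

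LARP1 is a member of the La-related protein family and has been linked to mRNAs that begin with a 5' terminal oligopyrimidine (TOP) tract, chiefly those of ribosomal proteins and translation factors. The La protein itself binds the uridine-rich 3' ends of new RNA polymerase III transcripts, among them the Y RNAs, vault RNAs and the 7SL RNA of the signal recognition particle. In PAR-CLIP, 4-thiouridine crosslinked to protein is often read as C, so that T-to-C changes mark crosslinked positions.

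Some members could be placed exactly, because an unspliced GENCODE transcript on GRCh37 has the same name and length as the RefSeq RNA. Their sites of at least 1 RPM are shown 5' to 3' in DNA letters, and no mRNA, rRNA or U snRNA shared their values. Among others, small nuclear RNAs that stayed among the members and microRNA precursors were left out of this placing. Capitals mark every run of 6 or more consecutive C or T, searched on the RNA strand only. Of sites longer than 30 nt, the 30-nt stretch with the most C and T is shown.
RNY4, nt 1-29, chr7:148660407-148660435 plus strand, mTOR-inactive: ggctggtccgatggtagtgggttatcaga
RNY4, nt 67-96 of site 57-96, chr7:148660463-148660502 plus strand, mTOR-inactive: CCCCCCactgctaaatttgactggCTTTTT
BCYRN1, nt 91-117, chr2:47562544-47562570 plus strand, mTOR-inactive: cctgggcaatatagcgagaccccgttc
SNORA1, nt 1-24, chr11:93465276-93465299 minus strand, mTOR-inactive: tgcctcattctagagaatgggcac
SNORA46, nt 65-88, chr16:58582450-58582473 minus strand, mTOR-inactive: aattcctggCTCTCTgttgcacag
SNORD84, nt 32-61 of site 27-70, chr6:31508886-31508929 minus strand, mTOR-inactive: cgctttgcgcagtgatgaccctcatctatc
RPL29P2, nt 598-618, chr17:7658235-7658255 plus strand, mTOR-inactive: catggggctggggTCCTCCTg
SNORD89, nt 94-112, chr2:101889400-101889418 minus strand, growing: aaccactagtctgacctca
GTSE1-DT, nt 1497-1516, chr22:46691042-46691061 minus strand, growing: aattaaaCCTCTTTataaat

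The coordinates are those of the whole site. GENCODE places SNORA1 within TAF1D, SNORD84 within DDX39B, SNORA46 in an intron of CNOT1, SNORD89 in an intron of RNF149 and RPL29P2 in an intron of DNAH2, while RNY4, BCYRN1 and GTSE1-DT lie within no other gene of the same strand there. The site was richer in C and T than the rest of its RNA in 8 of these 9 sites, for example 62.5% against 46.4% at the 3' site of RNY4 and 62.5% against 50.5% in SNORA46. The gap was smaller in SNORA1 (50.0% against 47.2%) and SNORD84 (59.1% against 55.9%). How often other windows of equal length exceed the rest of the RNA was not computed, so this count has no background. The exception was the 5' site of RNY4, with 41.4% C and T against 58.2% in the rest of the RNA, and with 41.4% G against 13.4%. A run of 6 or more C or T stood in 4 of the 9 sites. Such a run stands in 20.3% of all 24-nt windows of 3211 GENCODE snoRNAs, vault RNAs and other short noncoding RNAs of 50 to 300 nt, a range that GTSE1-DT and RPL29P2 exceed. Among windows as long as the site in the same RNA, it stands in 43.9% for the 3' site of RNY4, 33.9% for SNORA46, 16.1% for GTSE1-DT and 5.18% for RPL29P2. For the sites without a run this share is 45.7% for SNORD84, 36.8% for the 5' site of RNY4, 28.7% for BCYRN1, 14.6% for SNORD89 and 0% for SNORA1. This is a description of 9 sites from 8 RNAs.

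Site strength was given by the authors as RPM, the reads of a site scaled to the mapped reads of its library. The paper counted sites that passed an RPM threshold not given in its text, so a listed site need not be one it counted. Most member sites were weak: 407 of 542 (75.1%) under growing conditions and 322 of 524 (61.5%) under mTOR-inactive conditions had under 0.1 RPM. Sites of at least 1 RPM numbered 98 and 137 and held 99.9% and 100.0% of the members' RPM. The share of lines at or above 1 RPM was 18.1% on these noncoding RNAs and 13.5% on mRNAs under growing conditions, and 26.1% and 27.5% under mTOR-inactive conditions. Of the 98 lines, 52 were isoforms of a single gene that all repeated 1 value. Summed over all member lines, RPM was 23161 under growing and 50524 under mTOR-inactive conditions, which was 4.04% and 8.89% of the RPM of all listed sites. Without the values also listed on an mRNA, rRNA or U snRNA the sums were 6281 and 31184 RPM. The order was the opposite for the authors' RPM normalized to RPKM, 2.21e+08 and 7.19e+07 over sites on RNAs above 0 RPKM. That reversal rests on the 52 isoform lines that repeat 1 value. Most of these lines had a normalized value of 3.49e+06 to 5.48e+06 each, and together they hold most of the growing sum. Most of the mTOR-inactive sum likewise lies on isoforms of LINC00670 that repeat 1 value, with 2.38e+07 and 2.51e+07 at 0.0056 and 0.0053 RPKM. With 1 library for each condition, a difference of the libraries and one of the conditions cannot be told apart.

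**Figure D1:**
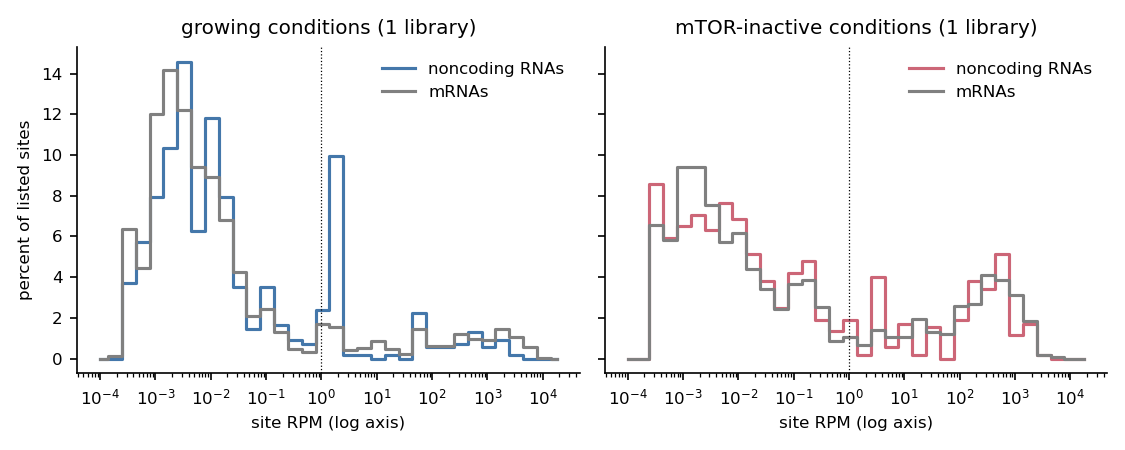
Distribution of site RPM (log axis) as percent of listed sites, for noncoding RNAs other than rRNA and U snRNA (coloured) and for mRNAs (grey), in the growing library (left) and the mTOR-inactive library (right). The dotted line is 1 RPM. The sites form a broad weak group below it and a smaller strong group above it in both libraries, and part of the left one is a single value repeated on 52 isoforms of 1 gene.

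Many of these values were not particular to the noncoding RNA. The authors let a read map to up to 100 positions, and the same RPM, to 4 decimals, was often listed on several transcripts. Under growing conditions the 98 strong lines held 37 distinct values, of which 22 (14104 RPM) were also listed on an mRNA, rRNA or U snRNA and 15 (5538 RPM) were not. Under mTOR-inactive conditions there were 83 distinct values, of which 39 (16304 RPM) were also listed there and 44 (24891 RPM) were not. The mRNA partner lay in the 3'UTR for 13 and 21 of these values, in the coding sequence for 6 and 13, in the 5'UTR for 1 and 1, and the partner was a U snRNA for 2 and 4, in growing and mTOR-inactive conditions. Reads of such a value cannot be assigned to either RNA. Only equal values were matched, so a value that is not shared in this sense can still hold reads that fit another RNA. For example, RNU6-1 had 598 RPM at nt 81-106, not shared by this measure, where RNU6-42 had 574 RPM at nt 84-107.

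The classes differed in this respect. Every one of the 8 distinct values of at least 1 RPM on noncoding isoforms of coding genes under growing conditions, and all but 1 of the 18 under mTOR-inactive conditions, stood also on an mRNA. Conversely, no value on 7SL RNA, Y RNAs, vault RNA, BCYRN1, snoRNAs, microRNA precursors or host RNAs of small RNAs was shared with an mRNA, rRNA or U snRNA. Ribosomal protein pseudogenes had 9 distinct values under mTOR-inactive conditions, of which 4 were not shared, and other pseudogenes 10, of which 3 were not shared.

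**Figure D2:**
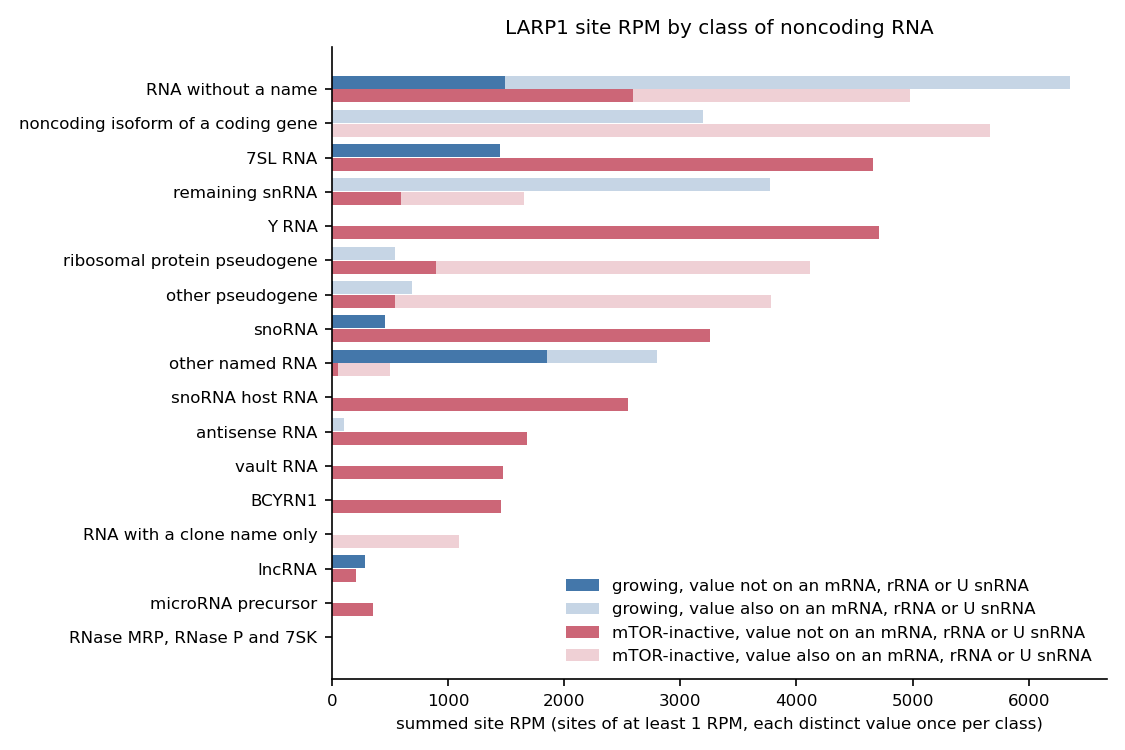
Summed site RPM by class of noncoding RNA, counting sites of at least 1 RPM and each distinct value once in a class, under growing (blue) and mTOR-inactive (red) conditions. Pale parts are values also listed on an mRNA, rRNA or U snRNA. The bars of noncoding isoforms are almost wholly pale, whereas those of 7SL RNA (1444 and 4658 RPM), Y RNA (0 and 4710 RPM) and snoRNA (456 and 3252 RPM) have no pale part.

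A list of 15 short RNAs made by RNA polymerase III, without 5S rRNA and U6, was examined as a group. It had a site on 2 RNAs under growing conditions, both 7SL genes, and on 9 under mTOR-inactive conditions, 7 of them with at least 1 RPM. Their sites summed to 1444.3 RPM in the growing library, 6.2% of the RPM of all members, and to 12727.6 RPM in the mTOR-inactive library, 25.2%. VTRNA2-1, RNY1, RNY3, RN7SL3, RN7SK and RPPH1 had no listed site in either library. A list holds only called sites, so an RNA without one is not a measured zero.

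The 7SL genes RN7SL1 and RN7SL2 encode the RNA scaffold of the signal recognition particle, which docks ribosomes at the endoplasmic reticulum. The site at nt 75-147 of RN7SL2 had 880 RPM in the growing and 2401 RPM in the mTOR-inactive library. The site at nt 33-147 of RN7SL1 had 564 and 1821 RPM. Both were listed in both libraries and were higher in the mTOR-inactive library, 2.73-fold and 3.23-fold. The genes are near-identical, so the split of reads between them is uncertain.

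The T-to-C column of the site lists differed more than RPM at these sites. That column was mostly a fixed multiple of RPM, 25.8 in the growing and 28.3 in the mTOR-inactive library, and what it stands for is not given in the sources used here. It is therefore given as a percentage of that multiple. It was 1.36% and 63.7% at the RN7SL2 site, and 1.41% and 68.5% at the RN7SL1 site, in growing and mTOR-inactive conditions. A further 7SL site at nt 172-195, with 434 RPM on either gene, was listed under mTOR-inactive conditions only, at 1.92%. RN7SL2 also had a site at its 3' end, nt 269-299, with 2.33 RPM under mTOR-inactive conditions.

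The Y RNAs are bound by the Ro60 protein and are named for their cytoplasmic location. No Y RNA site was listed under growing conditions. Under mTOR-inactive conditions RNY4 had 1408 RPM at its first bases, nt 1-29, and 1783 RPM at its last bases, nt 57-96. RNY5 had 1519 RPM at nt 1-25, its first bases. The ends of a Y RNA pair with each other into a stem, and all 3 sites held an end of the RNA, of which those of RNY4 are printed above. The T-to-C percentage was 99.7% at the 5' site of RNY4, 35.1% at its 3' site and 60.0% in RNY5.

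Vault RNAs are components of the vault ribonucleoprotein particle. VTRNA1-2 had 1469 RPM at nt 5-50, with a T-to-C percentage of 100.0%, under mTOR-inactive conditions and no listed site under growing conditions. VTRNA1-1 and VTRNA1-3 shared a weak value of 0.2236 RPM at nt 1-28, again in the mTOR-inactive library alone. BCYRN1, a brain-enriched regulator of translation that arose from an Alu element, had 1454 RPM at nt 91-117 under mTOR-inactive conditions only, at 100.0%. RMRP, the RNA of RNase MRP, had 1.20 RPM at nt 189-212 with a T-to-C percentage of 2.95%.

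The level of these RNAs in mRNA-seq gives little to set beside the sites, because these libraries hold few reads of short RNAs. RPKM values of snoRNAs and similar RNAs fell on whole reads for 80.2% to 82.8% of the low values in each library (within 0.05 reads, below 20 reads) if a library held 32.85 to 34.83 M mapped reads. On this scale RNY4 had 1 read in growing replicate 1 and 0 in the other 3 libraries, and RNY5 had 1 read in mTOR-inactive replicate 1 and 0 elsewhere. VTRNA1-3 had 1, 1, 2 and 0 reads, and VTRNA1-2 was not listed in the table. RN7SL1 and RN7SL2 were better covered, with 331 to 463 and 340 to 465 reads in a library, rounded where reads were shared between copies.

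Reads that matched several loci were split evenly, and how many BCYRN1 reads also match other Alu-derived sequence was not tested. BCYRN1 had a high RPKM in mRNA-seq, with 148 and 156 RPKM under growing and 145 and 135 RPKM under mTOR-inactive conditions. On the log2(RPKM + 1) scale the change was -0.12 (SE 0.041, n = 2 against 2, limma with Benjamini-Hochberg adjusted p = 0.136), and its RPKM did not pass the test, with both mTOR-inactive libraries below both growing libraries. RN7SL1 had 33.7 and 36.3 RPKM under growing and 45.5 and 38.5 RPKM under mTOR-inactive conditions (log2 change 0.25, SE 0.078, limma adjusted p = 0.105). RN7SL2 had 34.6 and 38.0 against 45.7 and 37.7 RPKM, with overlapping groups (log2 change 0.19, SE 0.090, limma adjusted p = 0.229). Without mTOR-inactive replicate 2, both 7SL genes passed the test, with log2 changes of 0.37 and 0.33 (limma adjusted p = 0.0149 and 0.0300). None of the 4 RNAs of the list that had a site and were tested passed it with all libraries. RN7SK (3.66 to 4.57 RPKM) and RPPH1 (1.16 to 1.68 RPKM), which had no site, were also in the fit, and their results were not examined.

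Small nucleolar RNAs guide 2'-O-methylation (box C/D, SNORD) or pseudouridylation (box H/ACA, SNORA) of other RNAs, and most are cut from introns of a host transcript. Of 6 snoRNA lines under growing conditions, all at 1 RPM or above, 2 values were distinct. Of 15 lines under mTOR-inactive conditions, 14 were at 1 RPM or above, with 7 distinct values. SNORA1 had 1523 RPM at nt 1-24, SNORD84 had 651 RPM at nt 27-70 and SNORA46 had 529 RPM at nt 65-88, each only in the mTOR-inactive list. Their T-to-C percentages were 99.6%, 100.0% and 100.0%. SNORD89 had 394 RPM at nt 94-112 only in the growing list, with 6.86%. SNORD16, which the mRNA-seq table names after its host gene RPL4, had 1.31 RPM at nt 1-32 under mTOR-inactive conditions.

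The U3 snoRNA, which acts in the processing of the ribosomal RNA precursor, is encoded by several near-identical genes. At nt 138-159 the copies SNORD3A, SNORD3B-1, SNORD3B-2, SNORD3C and SNORD3D repeated 62.3 RPM in the growing and 140 RPM in the mTOR-inactive library, a ratio of 2.25. The T-to-C percentage was 0.42% in the growing library and 100.0% in the mTOR-inactive one. A second site at nt 4-27 had 405 RPM in 4 of the copies and 2.50 RPM in SNORD3D, under mTOR-inactive conditions only.

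These snoRNAs had few reads in mRNA-seq. SNORA1 had 9 and 6 reads under growing and 0 and 5 under mTOR-inactive conditions, SNORA46 had 2, 1, 1 and 0, SNORD84 had 3, 2, 4 and 6 and SNORD89 had 2, 6, 8 and 4. SNORD3B-1 had 7 and 7 against 12 and 11 reads, or 1.01 and 0.94 against 1.69 and 1.44 RPKM, and passed the limma test at an adjusted p of 0.05 (log2 change 0.37, limma adjusted p = 0.0167), as did SNORD3B-2 with the same values and SNORD3D (0.37, 0.0274). The near-identical copies SNORD3A (log2 change 0.47, limma adjusted p = 0.0902) and SNORD3C (0.086, adjusted p = 0.597, overlapping groups) did not pass. The RPKM file cannot tell reads of the mature snoRNA from reads of its host transcript where the reads lie on both.

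The precursors of microRNA miR-30c, MIR30C1 and MIR30C2, shared a value of 356 RPM under mTOR-inactive conditions at a T-to-C percentage of 100.0%. The site spanned nt 17-38 of the MIR30C1 hairpin and nt 7-28 of the MIR30C2 hairpin. In both it covered 22 of the 23 bases of the mature microRNA, whose RefSeq sequence (GRCh38.p14) is shown because the site coincides with it, with the seed (bases 2 to 8) in capitals. The reads cannot be assigned to either hairpin.
hsa-miR-30c-5p: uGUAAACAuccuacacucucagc

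A T-to-C value under 10% was common beyond the small RNAs. Of the distinct values of at least 1 RPM it was found in 32.4% (growing) and 12.0% (mTOR-inactive) on all member RNAs, in 25.9% and 16.3% on mRNAs, and in 72.9% and 37.7% on rRNA and U snRNA.

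The 5 microRNA precursors with a site under growing conditions summed to 0.0378 RPM. MIR30C2 had 1 read in growing replicate 1 and none in the other mRNA-seq libraries.

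**Figure D3:**
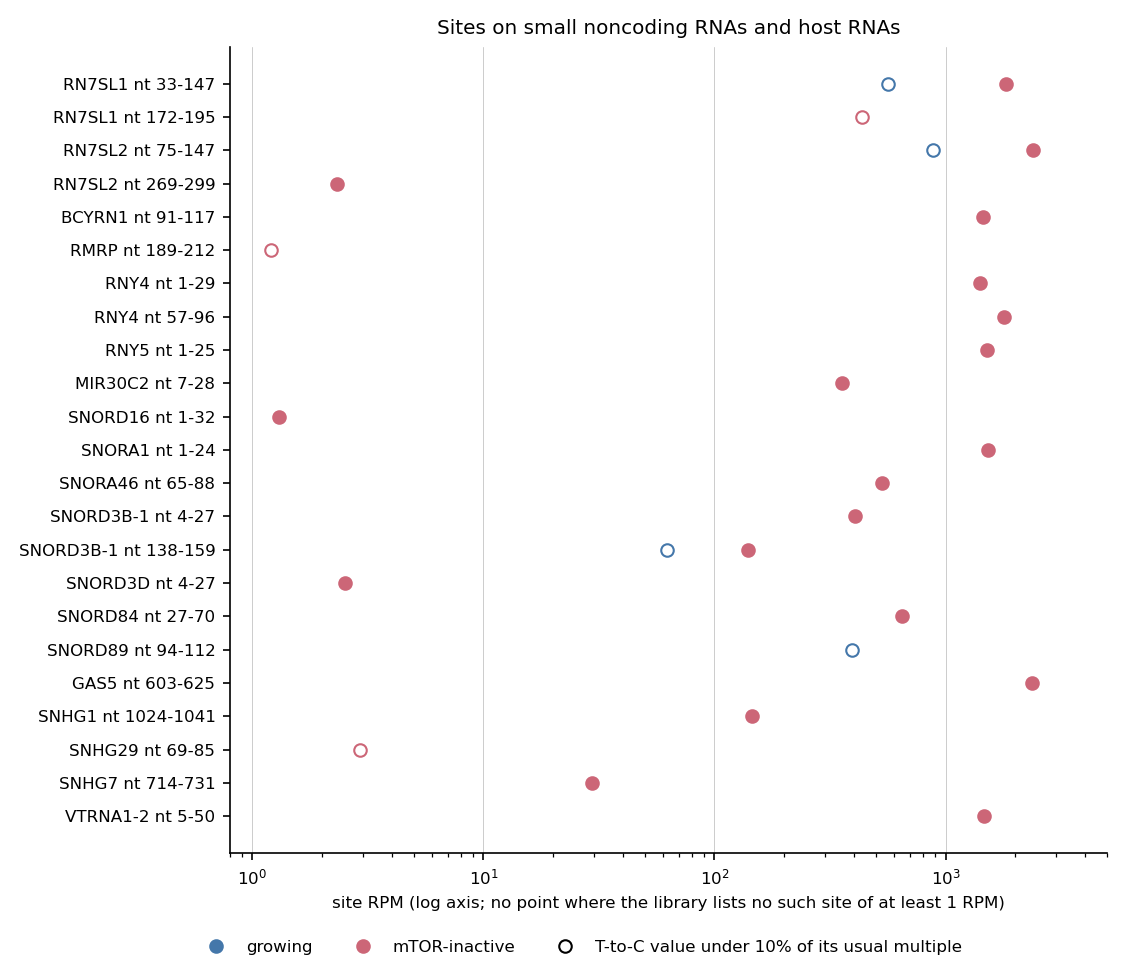
Site RPM (log axis) of small noncoding RNAs and of host RNAs of small RNAs under growing (blue) and mTOR-inactive (red) conditions, for sites of at least 1 RPM, with 1 gene shown for each shared value. Open circles mark sites whose T-to-C value was under 10% of its usual multiple. All 4 growing points are open, and most mTOR-inactive points are filled and have no growing partner.

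Host RNAs carry snoRNAs or microRNAs in their introns and leave a spliced noncoding RNA behind. GAS5, a snoRNA host known to accumulate when growth or translation stops, had 2368 RPM at nt 603-625 under mTOR-inactive conditions and no listed site under growing conditions. SNHG1 had 145 RPM at nt 1024-1041 and a weak further site of 0.706 RPM, again in the mTOR-inactive library alone. SNHG7 had 29.5 RPM, repeated on 2 isoforms. SNHG29, also named C17orf76-AS1, had 2.93 RPM at nt 69-85 on 20 isoforms, with a T-to-C percentage of 0.12%, whereas that of GAS5, SNHG1 and SNHG7 was 99.9% to 100.0%. SNHG12 and MIR17HG had only growing sites, of 0.0129 RPM and of 0.0030 and 0.0035 RPM.

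Antisense RNAs are transcribed from the strand opposite a coding gene. The class used here also took in RNAs described or named as intronic transcripts. ZNFX1-AS1, which RefSeq names ZFAS1 and which also hosts snoRNAs, had 545 RPM on 4 isoforms under mTOR-inactive conditions, at 100.0%. FGD5-AS1 had 1126 RPM at nt 389-412 with 0.71%, and MAGI2-AS3 had 5.70 RPM with 0.83%. Under growing conditions DNMBP-AS1 (53.2 RPM) repeated a 3'UTR value of UNKL and IBA57, and KCNQ1OT1 had 1.31 RPM. No antisense RNA had 1 RPM or more in both libraries.

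Among long intergenic RNAs the abundant nuclear RNA MALAT1 had 228 RPM at nt 8334-8355 and TUG1 had 59.3 RPM at nt 3642-3659. Both sites were listed under growing conditions, at a T-to-C percentage of 100.0%. Neither had a listed site under mTOR-inactive conditions. Their RPKM was 6.55 and 6.80 against 6.49 and 6.72 for MALAT1, with overlapping groups (log2 change -0.013, SE 0.035, limma adjusted p = 0.849). For TUG1 it was 31.8 and 32.9 against 33.4 and 34.2 (log2 change 0.062, SE 0.030, limma adjusted p = 0.236). LINC00670 had 133 RPM under mTOR-inactive conditions at a T-to-C percentage of 0.13%, shared with the pseudogene CCDC144B. OIP5-AS1 had 0.0024 RPM under growing conditions, and NEAT1 had no site.

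GTSE1-DT, a transcript divergent from GTSE1, had the highest growing value that no mRNA, rRNA or U snRNA shared, 1849 RPM at nt 1497-1516, which is 2 bases from the end of its 1518 nt. It had no listed site under mTOR-inactive conditions. It was scarce in mRNA-seq, at 0.714 and 0.617 RPKM under growing and 0.727 and 0.786 RPKM under mTOR-inactive conditions. FAM66C had 18.9 RPM under mTOR-inactive conditions. The readthrough transcripts SENP3-EIF4A1 (937 RPM growing, 10.2 RPM mTOR-inactive) and SERF2-C15ORF63 (435 RPM mTOR-inactive) repeated values of the mRNAs EIF4A1 and SERF2 or HYPK, and TEX41 (14.3 RPM growing) repeated a 3'UTR value of RAG2.

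Ribosomal protein pseudogenes are mostly retrocopies of mRNAs that begin with a TOP tract. RPSAP9 repeated 539 RPM of the coding sequence of RPSA under growing conditions, at 0.42%. Under mTOR-inactive conditions it had values of 1045, 303 and 198 RPM that the RPSA mRNA also carried, and 686 RPM (nt 391-426 of NR_003662.2) that it did not. RPL21P28 repeated 1272 RPM of the 5'UTR of RPL21 and 400 RPM of its coding sequence, under mTOR-inactive conditions only. RPL29P2, whose site is printed above, had 190 RPM that no mRNA shared. RPLP0P2 was listed in both libraries, with 1.13 RPM in the growing and 0.753 RPM in the mTOR-inactive library.

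The other pseudogenes also followed parent mRNAs. Under growing conditions TPI1P3 (505 RPM) and PPIAP30 (178 RPM) repeated 3'UTR values of TPI1, a glycolytic enzyme, and PPIA, cyclophilin A. Under mTOR-inactive conditions DENND10P1 (812 RPM, FAM45A), TMED10P1 (715 RPM, TMED10) and H3F3AP4 (667 RPM, H3F3A) repeated 3'UTR values, and PDIA3P (632 RPM) repeated a coding-sequence value of PDIA3. In each library ACTG1P20 had a value that no mRNA, rRNA or U snRNA repeated, 6.09 RPM at nt 2313-2333 under growing and 401 RPM at nt 1362-1385 under mTOR-inactive conditions.

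On noncoding isoforms the strongest growing sites were those of MMAB (2165 RPM, coding sequence), ACTG1 (453 and 349 RPM, 3'UTR) and EARS2 (103 RPM, 3'UTR). The strongest mTOR-inactive sites were those of MRPS14 (1079 RPM), SRSF3 (851 RPM) and C15orf40 (700 RPM), all with the same value in the 3'UTR of the mRNA of the gene. The site of DBF4B (1.30 RPM, mTOR-inactive) was the only such value not listed on an mRNA.

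RNAs without a name in either source included the highest growing value of all members, 3396 RPM on NR_047688.1, which stood also in the coding sequence of RPS3A. NR_027002.1 (1006 RPM), NR_003699.1 (631 RPM, with the 3'UTR of RPL39) and NR_002933.1 (555 RPM, with the 3'UTR of TOMM20) followed. Under mTOR-inactive conditions the highest were NR_027130.1 (1512 RPM, not shared), NR_027405.1 (701 RPM, with the 3'UTR of MTHFD2) and the pair XR_132535.1 and XR_132867.1 (651 RPM, with the 3'UTR of RPL41). Among clone names AC005152.2 had 1.60 RPM under growing conditions. AC004528.3 had 574 and 524 RPM under mTOR-inactive conditions, shared with RNU6-42 and RNU6-15 at the same positions. It is not counted below among the RNAs that RefSeq names as snRNA.

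Some spliceosomal RNAs had no name in the mRNA-seq table and so stayed among the members. RNU5D-1 and RNU5E-1 shared 2081 RPM in the growing and 455 RPM in the mTOR-inactive library with RNU5B-1. RNU1-2 had 1689 and 79.0 RPM, shared with other U1 copies. Its T-to-C percentage went the other way, 6.49% in the growing and 220% in the mTOR-inactive library, so the column can exceed its usual multiple. RNU6-1 had 598 and 524 RPM under mTOR-inactive conditions. RNAs that RefSeq names as snRNA made up 3 lines and 5851 RPM of the growing members, and 5 lines and 2112 RPM of the mTOR-inactive members. The U5 and U1 sites were thus lower in the mTOR-inactive library, and the 7SL and U3 sites listed in both libraries were higher in it.

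Few members were listed in both libraries. Of the 886 transcripts, 416 were listed under growing conditions only, 378 under mTOR-inactive conditions only and 92 under both, and 57 transcripts had sites that overlapped by at least 1 nt. Both overlapping sites had at least 1 RPM in 14 transcripts of 13 genes or unnamed RNAs. The unnamed pair XR_109601.1 and XR_112141.1 changed little, with 112 and 133 RPM. ACTG1 went both ways, with 453 and 87.8 RPM at nt 1510-1534, 349 and 7.18 RPM at nt 1682-1700, and 1.04 and 128 RPM at nt 968-983. PDIA3P had 0.0188 and 632 RPM, and NR_027002.1 had 1006 and 0.0133 RPM, so that both were listed in either library with very unequal values.

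**Figure D4:**
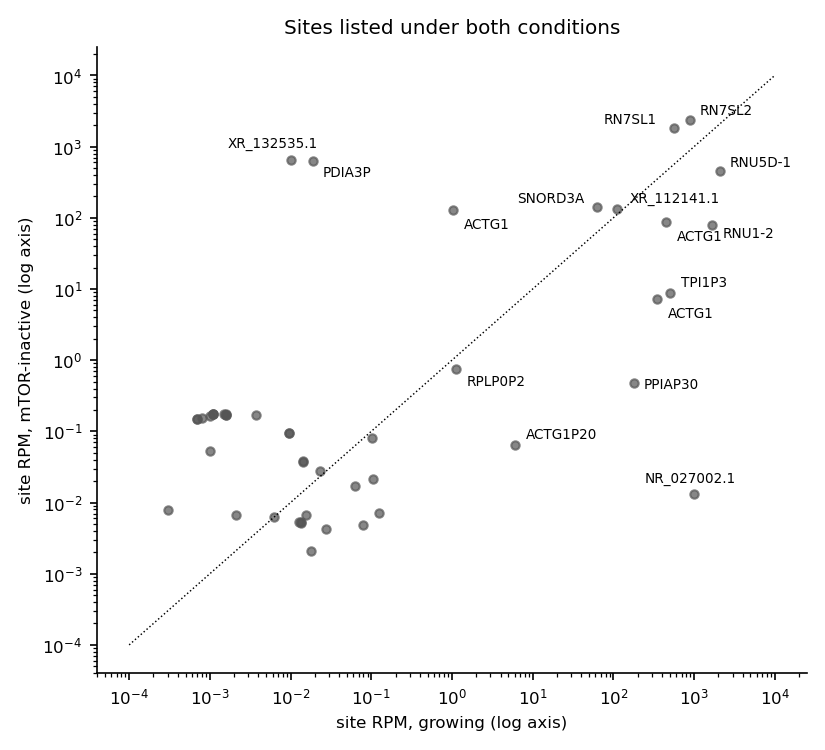
RPM under growing (horizontal) and mTOR-inactive conditions (vertical), both log axes, of member sites that overlapped in the same transcript. Each point is a distinct pair of values, and the dotted line marks equal RPM. RN7SL1, RN7SL2 and SNORD3A lie above the line, the pair with XR_112141.1 lies near it, and RNU5D-1, RNU1-2, TPI1P3, PPIAP30 and NR_027002.1 lie below.

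The level of the member RNAs was then compared in mRNA-seq. Of the 886 transcripts, 800 were in the RPKM table and 337 passed a mean of 1 RPKM, and limma was fitted on all 21014 transcripts that passed. Of the 337, 46 (13.6%) passed an adjusted p of 0.05, where 9.93% of all tested transcripts did. They comprised 41 that rose (12.2%, against 3.48% of all tested) and 5 that fell (1.5%, against 6.45%). The median log2 change was 0.030 over the members tested and -0.0013 over all transcripts tested. Isoforms of a gene share reads: the 41 came from 19 genes, and 19 of them were isoforms of SNHG29. Outside SNHG29, 22 of 317 transcripts (6.9%) rose. Of the members, 26 were called without growing replicate 1, 24 without growing replicate 2, 29 without mTOR-inactive replicate 1 and 3 with no filter on RPKM.

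Most host RNAs of small RNAs passed the test. Of the 16 host transcripts tested, 13 rose, 8 of them isoforms of SNHG29, 1 fell and 2 did not pass. Over all tested transcripts 3.48% rose and 6.45% fell. Other SNHG29 isoforms and those of ZNFX1-AS1 were grouped with antisense RNAs by name and are not among the 16. GAS5 had 130 and 129 RPKM under growing and 185 and 182 RPKM under mTOR-inactive conditions, with no overlap (log2 change 0.50, SE 0.022, limma adjusted p = 5.43e-04). SNHG1 had 97.0 and 92.5 against 125 and 126 RPKM (log2 change 0.40, SE 0.029, limma adjusted p = 0.00177). Isoform NR_024542.1 of SNHG7 had 24.0 and 23.0 against 31.2 and 30.2 RPKM (log2 change 0.37, SE 0.033, limma adjusted p = 0.00326). These 3 RNAs, which were higher in both mTOR-inactive libraries, also had a site of 29.5 RPM (the SNHG7 value) or more in the mTOR-inactive library alone. Of other hosts that rose, ZNFX1-AS1 had 545 RPM under mTOR-inactive conditions. SNHG29 had only 2.93 RPM there at a T-to-C percentage of 0.12%, and SNHG12 had a weak growing site only. An RNA is a member only through a listed site, so this pairing is partly set by the selection. Whether the RPKM has a part in the listing of these sites was not tested.

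SNHG12 had 30.1 and 27.7 against 36.5 and 33.1 RPKM (log2 change 0.26, SE 0.057, limma adjusted p = 0.0440), and lost the call without growing replicate 1 (adjusted p = 0.0534), growing replicate 2 (0.123) or mTOR-inactive replicate 1 (0.106). SNHG29 rose in 19 of its 20 isoforms, by 0.15 to 0.27 on the log2 scale, for example from 10.3 and 10.5 to 12.7 and 12.6 RPKM in NR_027164.1. ZNFX1-AS1 rose in all 4 isoforms, by 0.20 to 0.32. SNHG17 had a log2 change of 0.058 (limma adjusted p = 0.276) and MIR600HG of 0.077 (adjusted p = 0.430).

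MIR17HG, host of the miR-17 to miR-92 cluster of growth-promoting microRNAs, fell. It had 13.4 and 14.5 RPKM under growing and 8.62 and 8.65 RPKM under mTOR-inactive conditions (log2 change -0.63, SE 0.042, limma adjusted p = 0.00151). Among transcripts that passed the test without overlap, the next largest falls were those of CTC-338M12.3 (log2 change -0.28, limma adjusted p = 0.0385) and CRHR1-IT1 (-0.25, adjusted p = 0.0152). The largest such rises beside GAS5 were those of RP11-261C10.3 (0.48, adjusted p = 0.00188) and the unnamed XR_132899.1 (0.43, adjusted p = 0.00704). Larger values that did not pass were those of SNORA1 (-0.89, adjusted p = 0.154) and SNORD84 (0.55, adjusted p = 0.0699), which had few reads. CTC-338M12.3 lost the call without growing replicate 1 (adjusted p = 0.121) or mTOR-inactive replicate 2 (0.106), and CRHR1-IT1 without growing replicate 1 (0.0613), growing replicate 2 (0.0638) or mTOR-inactive replicate 2 (0.0585).

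**Figure D5:**
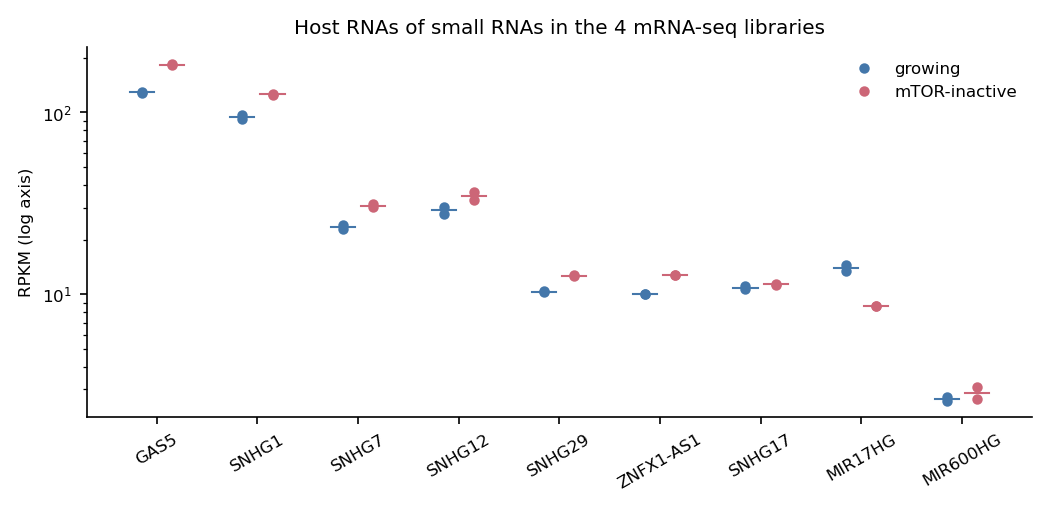
RPKM (log axis) of host RNAs of small RNAs in the 2 growing (blue) and 2 mTOR-inactive (red) mRNA-seq libraries, with 1 isoform a gene, where points are libraries and bars are means. GAS5 (130 and 129 against 185 and 182 RPKM) and the next 6 RNAs are higher in both mTOR-inactive libraries, though SNHG17 did not pass the test, MIR17HG is lower, and MIR600HG overlaps.

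The class counts below stand beside shares of 3.48% that rose and 6.45% that fell over all tested transcripts. Of the 9 snoRNAs tested 3 rose, all near-identical U3 copies that share reads, so they are not separate rises. Of 44 antisense RNAs 16 rose, mostly isoforms of SNHG29 and ZNFX1-AS1, and 1 fell, the intronic transcript CRHR1-IT1. Of 102 noncoding isoforms tested, 1 rose (RETREG3, log2 change 0.25) and 1 fell (SRSF6, -0.14). No ribosomal protein pseudogene passed (0 of 8), a number too small to set against the 9.93% of all tested transcripts. At an unadjusted limma p of 0.05, 115 of the 337 members passed, and 5865 of the 21014 transcripts in all. RPSAP9 (NR_003662.2) had 327 and 320 RPKM under growing and 334 and 324 RPKM under mTOR-inactive conditions, and RPL21P28 had 321 and 325 against 340 and 333 RPKM. Of 44 other pseudogenes, 1 rose, and of 16 long intergenic RNAs, 1 rose (LINC00339, 0.18).

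Because LARP1 has been linked to TOP tracts, the RefSeq starts of the host genes are shown (GRCh38.p14, first 30 bases of the RNA strand), with a C at the start and every C or T that follows it without a break in capitals. These are starts of the gene record and may differ from the start used in these cells.
SNHG12, chr1:28581844-28581873 minus strand: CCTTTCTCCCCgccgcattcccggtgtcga
ZFAS1, chr20:49278642-49278671 plus strand: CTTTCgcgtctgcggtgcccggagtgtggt
SNHG7, chr9:136728155-136728184 minus strand: CTCTgcgtgcgccggaggctgccgtggcgg
SNHG1, chr11:62855856-62855885 minus strand: CTCatttttctactgctcgtggtaagtggc
GAS5, chr1:173869016-173869045 minus strand: agatgtgtttattttggagcctacaccagc
MIR17HG, chr13:91347687-91347716 plus strand: attcacccacatggtccttcgaggtgccgc

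A C followed by 4 or more C or T opened 2 of the 9 matched host genes, SNHG12 and ZFAS1, and 4.04% of the 27305 starts in the RefSeq table. SNHG7 and SNHG1 began with shorter tracts of 4 and 3 bases, and the records of GAS5, SNHG29, SNHG17, MIR17HG and MIR600HG did not begin with C. A record without a tract does not show that the RNA made in these cells lacks one.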

How the data were processed

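LARP1 PAR-CLIP libraries (1 for each condition) and mRNA-seq libraries (2 for each condition) of HEK293T cells were used. The authors mapped reads to the GRCh37 transcriptome with Bowtie. They clustered PAR-CLIP reads with 0 to 2 T-to-C mismatches and dropped clusters that lacked any such mismatch. They deposited each site's RPM, an RPM divided by gene RPKM (a ratio, infinite where RPKM is 0) and a T-to-C score. The paper also names an empirically derived RPM threshold, whose value its text does not give, and reports fewer binding sites than are listed. Whether the lists were cut at that threshold is not known here. The authors split mRNA-seq reads that matched several loci evenly and deposited RPKM for each library and its mean. The mRNA-seq table has 39711 lines, and repeated accessions were used once. The mRNA-seq libraries are called replicates, without a statement for them that cultures were separate, so p-values measure the spread between these libraries, which may be technical.

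Members and lists were chosen with earlier results of these data known. Transcripts that the table leaves unnamed (550 of 886) or names by clone took the RefSeq symbol (GRCh38.p14) where the accession matched (342 and 75), and 208 had no name. Named in each class were the 3 genes with the highest site of at least 1 RPM in each condition, every listed RNA polymerase III transcript, the largest significant changes without overlap, partner mRNAs and 8 fixed lncRNAs; others were chosen after their values were seen. XIST and Y-linked RNAs were counted, but their levels are not given. A further antisense RNA is not reported here.

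log2(RPKM + 1) was tested, for transcripts averaging 1 RPKM or more, with limma 3.58.1 (R 4.3.3, eBayes with trend, Benjamini-Hochberg over all 21014 transcripts, threshold 0.05), after a check on simulated data. Folds on this scale understate changes of low RNAs. Other filters, pseudocounts, scalings and left-out libraries were tried as alternatives.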

Additional observations from a re-analysis of the deposited data

How the results depend on the processing

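The site counts of 542 and 524 came to 98 and 137 with a minimum of 1 RPM and to 135 and 202 with 0.1 RPM, for growing and mTOR-inactive conditions. Summed RPM (23161 and 50524) was 19655 and 41213 with each distinct value counted once, 6281 and 31184 without values also listed on an mRNA, rRNA or U snRNA, 17922 and 47714 without sites of low T-to-C value, and 17310 and 48413 without RNAs that RefSeq names as snRNA. Each of these sums was higher under mTOR-inactive conditions. The order turned for RPM normalized to RPKM by the authors, 2.21e+08 and 7.19e+07 over sites with a finite value, which leaves out RNAs at 0 RPKM. Most of that growing sum comes from the 52 isoform lines of a single gene that repeat 1 value, and the turn rests on them. Most of the mTOR-inactive sum comes from isoforms of LINC00670, which also had very low RPKM. Transcripts with overlapping sites numbered 57, and 14 with 1 RPM in both libraries. Counting equal RPM and length once for each gene name, an alternative chosen after seeing the data, gave 417 and 451 sites.

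limma calls over all transcripts (2087) came to 1338 with a mean of at least 0.1 RPKM and 120 with no filter, which tests more transcripts, and to 863 to 1060 when a library was left out. Calls among members (46) came to 3 with no filter (41 higher became 3) and to 24 to 32 without a library. The lone library left in a condition was then taken to vary like the other condition. Same-numbered replicates shared only a number, with a correlation of their deviations of 0.040 over 21014 transcripts. With a replicate block, 43 members (37 higher, 6 lower) and 2135 transcripts in all were called. Scaling to the median log ratio left 46. For 17 named transcripts under 9 settings, 130 of 153 values kept direction and side of the threshold, 18 lost the call, 2 gained it and 3 changed sign: RMRP, which ranged from -0.023 without growing replicate 1 to 0.45 without growing replicate 2, and MALAT1, which ranged from -0.036 without growing replicate 1 to 0.011 without growing replicate 2 (0.0095 without mTOR-inactive replicate 1). The cause was not tested.

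The depth of the PAR-CLIP libraries was not known here, values reached down to 0.0003 RPM, and no counting interval can be given for a site.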
